A study of Mus musculus with 16 samples.

Results

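The 31 genes described here encode the machinery of synaptic vesicle release and the scaffold of the postsynaptic density, measured in the hippocampus of mice with and without a human tau transgene and with and without the gene Ch25h. They were picked by symbol, as well-known components of the vesicle, the active zone, the fusion complex, the adhesion molecules of the synaptic cleft and the postsynaptic density, and all 31 were found among the 55487 genes of the deposited table. The study compared 4 genotypes, each with 4 libraries from females labelled as 40 weeks old. TCKO mice carried the PS19 transgene and lacked Ch25h, T mice carried PS19 with Ch25h intact, CKO mice lacked Ch25h and had no transgene, and WT mice had neither change. PS19 expresses human tau of the 1N4R isoform with the P301S mutation, under the PrP promoter. Ch25h encodes an enzyme that hydroxylates cholesterol, and the labels name a knockout line without a conditional allele. RNA came from the right hippocampus after perfusion with PBS, and libraries were made with an oligo-dT kit. The labels number the replicates without stating whether they were separate mice, and every p-value refers only to the scatter among libraries.

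At a chemical synapse, transmitter is pumped into vesicles, the vesicles are docked and primed at the active zone, and calcium entry drives their fusion through the SNARE complex. On the other side of the cleft, adhesion molecules and a dense protein scaffold hold receptors and kinases opposite the release site. The hippocampus is rich in such glutamatergic synapses, and loss of synapses is a known feature of mouse models of tau pathology.

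Totals ran between 15064309 and 34348284 estimated reads per library, and each of the 31 genes had between 112 and 132569 reads in every library, so all 31 passed the filter on low counts. Ch25h had 0 to 1 reads in TCKO, 133 to 300 in T, 0 to 2 in CKO and 18 to 39.7 in WT libraries. Reads assigned to Mapt, the tau gene, reached 812 to 1138 CPM, the scaled share of a library's counts, in TCKO and 665 to 869 in T, against 363 to 386 in CKO and 329 to 360 in WT libraries. The hippocampal neuron markers Wfs1 and Prox1 were present in every library, at 24 CPM or more. Libraries T 4 and WT 1 stood apart in genes of the choroid plexus, whose 10 listed markers summed to 7533 and 7284 CPM there and to between 25.5 and 462 CPM in the other 14 libraries. Counts of called genes are therefore also given without these 2 libraries.

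The tau transgene was accompanied by lower transcript levels of part of this machinery, and in tau mice that lacked Ch25h part of it stood higher than in T. In T against WT, 0 of the 31 genes rose and 11 fell, which is 35.5% of them, at an adjusted p of at most 0.05 by edgeR's quasi-likelihood test with Benjamini-Hochberg adjustment over 18565 genes; of all genes tested, 13% were called higher and 11.2% lower. The largest falls among the called genes were in Sv2b, Nsf, Synpr and Nlgn3, with log2 fold changes between -0.96 and -0.70. In TCKO against T, 11 of 31 rose, again 35.5%, and 0 fell, against 4.81% and 8.05% of all genes. The largest of these rises were in Rph3a, Camk2a, Cplx2 and Nsf, with log2 fold changes between 0.64 and 0.84. The T libraries enter both comparisons, so the 2 counts are not independent of each other. In hippocampal tissue, fewer cells of a type and less RNA per cell cannot be told apart.

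Over all 31 genes, the median log2 fold change was -0.33 in T against WT, beside -0.01 for all genes tested, and 29 of the 31 fitted values were negative. The median was 0.41 in TCKO against T, beside 0.02 for all genes, and 30 of 31 values were positive. In 9 genes (29%) every T library lay below every WT library, against 11.8% of all genes, and in none did every T library lie above, against 13.3%. The same complete separation, with TCKO above T, held for 7 genes (22.6%), against 5.14% of all genes, and none had TCKO wholly below T, against 9.65%. At an unadjusted p under 0.05, 17 genes were lower in T than in WT and 17 were higher in TCKO than in T, with none in the opposite direction in either comparison. Of all genes, 17.9% were lower and 17.8% higher in T against WT at that level, and 13.9% were higher and 14.2% lower in TCKO against T. Without the choroid-rich libraries T 4 and WT 1, 5 of the 31 genes were called lower in T against WT, beside 4.72% of all genes, and 6 were called higher in TCKO against T, beside 2.16%. In the same reduced set, 11 genes had every T library below every WT library, beside 14.8% of all genes, and 7 had every TCKO library above every T library, beside 6.1%.

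The count of calls depended on single libraries. In T against WT, leaving out T 2 gave 5 calls, T 3 gave 6, T 4 gave 7, T 5 gave 14 and WT 5 gave 5, and each of the other 11 libraries gave between 8 and 11. For TCKO against T, leaving out T 2 gave 1 call, T 3 gave 5, T 4 gave 4 and T 5 gave 12, and leaving out TCKO 2 gave 5, TCKO 4 gave 5 and TCKO 5 gave 2. The share of all genes called moved too. Of all genes, 6.17% were called lower in T against WT without T 2, 6.24% without T 3, 8.89% without T 4, 13.2% without T 5 and 7.35% without WT 5. The share called higher in TCKO against T was 1.5% without T 2, 2.44% without T 3, 2.74% without T 4 and 7.86% without T 5, and 2.55% without TCKO 2, 4.49% without TCKO 4 and 2.24% without TCKO 5. The 5 genes Nsf, Nlgn3, Dlg2, Shank2 and Rab3a kept their call in T against WT whichever of the 16 libraries was left out. Shank2 was the only gene that did so in TCKO against T, and its call there was lost with only the 8 compared libraries.

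**Figure D1:**
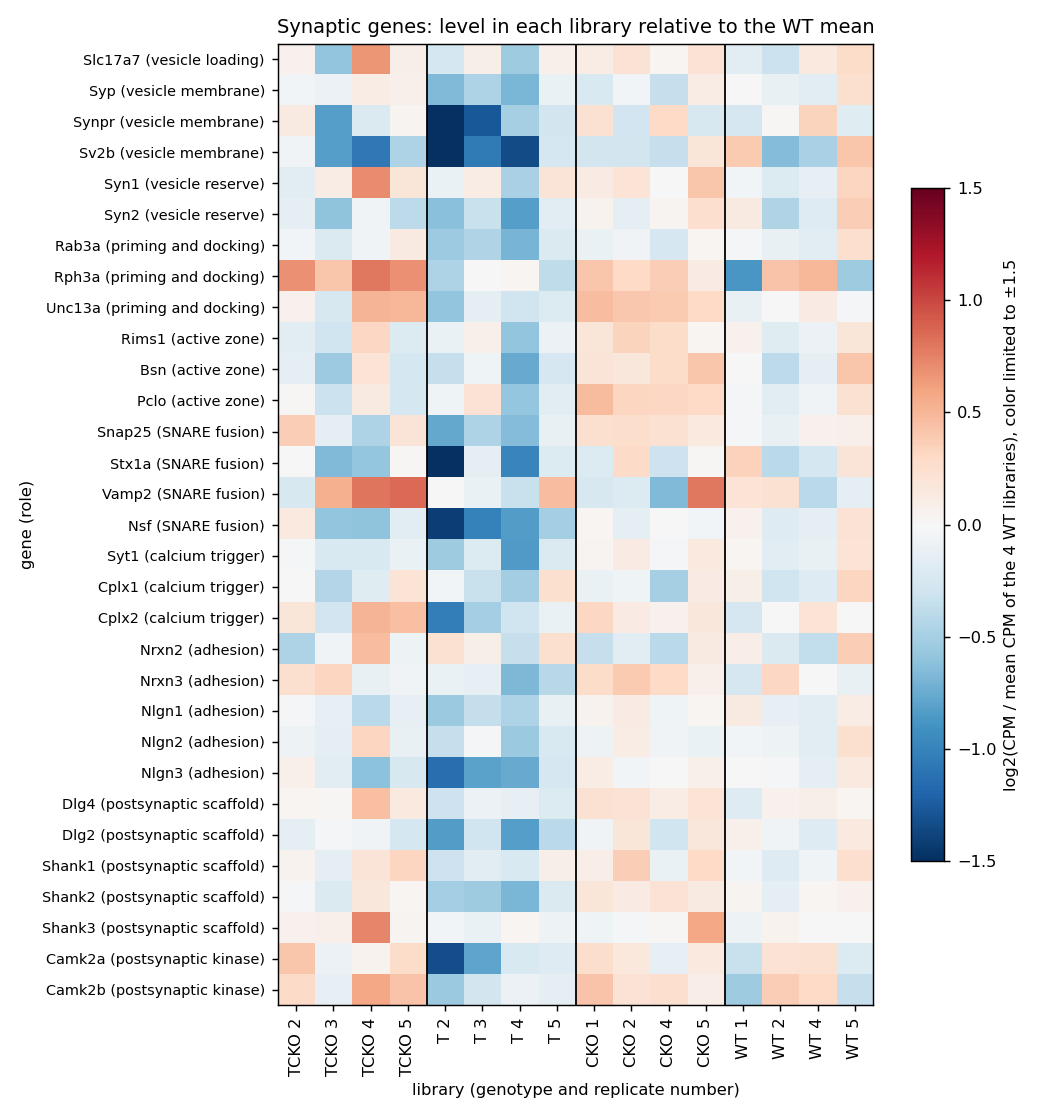
Level of the 31 genes (rows, with their role) in each of the 16 libraries (columns), as log2 of CPM over the mean of the 4 WT libraries. Blue marks levels below the WT mean and red marks levels above it. Most rows are blue in T 2, T 3 and T 4, and paler in T 5, where the 31 genes summed to 13765 CPM against 8743 in T 2.

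The sum of the 31 genes gives an order of the libraries, weighted toward abundant genes such as Snap25. It was 17826, 13326, 14262 and 17007 CPM in TCKO 2 to 5, and 8743, 10739.8, 10532 and 13765 CPM in T 2 to 5. It was 17039, 16592, 15547 and 16822 CPM in CKO 1, 2, 4 and 5, and 14561, 14939, 15655 and 16076 CPM in WT 1, 2, 4 and 5. T 2, T 3 and T 4 lay below every library of the other genotypes, while T 5 lay above TCKO 3 and below all the rest. By mean log2 CPM of the 31 genes, T 2 to 5 ranked 1, 3, 2 and 5 from the lowest. In that order TCKO 2 to 5 ranked 10, 4, 13 and 11, unlike their order by sum. As a share of a library's reads, the 31 genes took 1.34 to 1.71% in TCKO, 0.868 to 1.37% in T, 1.59 to 1.75% in CKO and 1.46 to 1.57% in WT libraries.

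Promoter sequence was looked up because many of these genes moved together. RefSeq windows on GRCm38.p6, from 250 bases before to 50 bases after a transcription start, were matched by symbol to 24 of the 31 genes, giving 40 windows. Their median GC content was 59.5%, against 52.7% over all 32851 windows. The site of nuclear respiratory factor 1 (NRF1), written as GCGCA and GCGC with any 1 base between them, was searched on both strands and was found in 5 of 40 windows (12.5%), against 4.6% of all windows. These 5 belong to Bsn, Dlg4, Nsf, Pclo and Syp, and the 80 bases before each start are shown with the match in capitals, 5' to 3' on the gene's strand.
Nsf: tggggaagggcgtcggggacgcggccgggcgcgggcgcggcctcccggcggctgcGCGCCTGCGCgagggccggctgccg
Syp: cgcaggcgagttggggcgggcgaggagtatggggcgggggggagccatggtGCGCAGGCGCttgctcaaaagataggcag
Dlg4: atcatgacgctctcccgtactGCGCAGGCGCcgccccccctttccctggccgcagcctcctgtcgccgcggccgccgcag
Bsn: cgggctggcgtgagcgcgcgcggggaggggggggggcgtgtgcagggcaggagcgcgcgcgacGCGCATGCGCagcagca
Pclo: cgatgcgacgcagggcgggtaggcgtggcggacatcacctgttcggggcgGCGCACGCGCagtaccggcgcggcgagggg
The Nsf stretch is chr11:103954057-103954136 on the minus strand, and its match begins 25 bases before the start. The Nsf match reads as the stated letters on the strand opposite to the gene. Syp lies at chrX:7638500-7638579 on the plus strand with the match 29 bases before the start, and Dlg4 at chr11:70023902-70023981 on the plus strand with the match at 59 bases. For Bsn, at chr9:108190384-108190463 on the minus strand, the distance is 17 bases, and for Pclo, at chr5:14514838-14514917 on the plus strand, it is 30 bases. The Bsn window holds another match, 148 bases before the start and outside the stretch shown. Of these 5 genes, Nsf and Syp were called lower in T against WT, and Nsf, Syp and Dlg4 were called higher in TCKO against T, while Bsn and Pclo passed neither test. Other motifs, again on both strands, were the GC box GGGCGG in 45.0% of the windows against 35.7% of all, the cAMP response element TGACGTCA in 2.5% against 1.8%, its shorter core TGACG, which is part of it, in 17.5% against 20.8%, the EGR site GCGGGGGCG in 7.5% against 2.9% and the TATA box TATAAA in 7.5% against 13.6%. Some genes have more than 1 window, and a match of letters shows no binding.

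Each of the 3 genes for vesicle membrane proteins was called lower in T against WT, beside 11.2% of all genes. Each of these calls was lost in an alternative fit. Without the choroid-rich libraries 1 of the 3 was called, beside 4.72% of all genes. Syp encodes synaptophysin, a major membrane protein of synaptic vesicles. It had 480.4, 462, 533 and 522 CPM in the TCKO libraries, 313, 358, 306 and 459 in T, 422, 477, 389 and 532 in CKO and 492, 457, 439 and 584 in WT. T 2, T 3 and T 4 were the lowest of all 16 libraries, and T 5 overlapped both WT and CKO but lay just under the lowest TCKO library. Its log2 fold change was -0.46 ± 0.13 (SE) in T against WT (adjusted p = 0.0193) and 0.48 ± 0.13 in TCKO against T (adjusted p = 0.0268). Without WT 5, T 2, T 3 or T 4 the T against WT call was lost, with adjusted p between 0.0613 and 0.0751, and without T 2, T 3, T 4, TCKO 4 or TCKO 5 that of TCKO against T was lost, at 0.0673 and 0.0991. Without both choroid-rich libraries the adjusted p was 0.124 in T against WT and 0.111 in TCKO against T.

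Sv2b encodes a synaptic vesicle glycoprotein that takes part in priming for release. Its levels were 305, 179, 151 and 229.6 CPM in TCKO, 111, 152, 125 and 262 in T, 261, 261, 249 and 359 in CKO and 414, 201, 226 and 423 in WT libraries. The WT libraries were split, with WT 1 and WT 5 far above WT 2 and WT 4, and T 5 lay above WT 2 and WT 4. The T against WT difference was -0.96 ± 0.29 on the log2 scale (adjusted p = 0.0253), and TCKO against T gave 0.41 ± 0.29 (adjusted p = 0.39), short of the threshold. The T against WT call was lost without WT 1, WT 5, T 2, T 3 or T 4 (adjusted p between 0.073 and 0.0913), and without both choroid-rich libraries the adjusted p was 0.199.

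Synpr encodes synaptoporin, a relative of synaptophysin that is abundant at hippocampal mossy fiber terminals. Its mean was 361 ± 95.9 CPM in TCKO, 227 ± 104 in T, 413 ± 87.8 in CKO and 407 ± 76.7 in WT libraries (SD, n = 4 each). Every T library (114 to 337 CPM) lay below every WT library (342 to 512 CPM), and T overlapped TCKO (230.1 to 445 CPM). Synpr fell by 0.84 ± 0.28 on the log2 scale in T against WT (adjusted p = 0.0392), but a fit blocked on replicate number gave an adjusted p of 0.0861. The call was also lost without WT 2, WT 4, WT 5, CKO 1, CKO 4, CKO 5, T 2, T 3 or TCKO 4, at adjusted p between 0.0534 and 0.131. TCKO against T gave 0.67 ± 0.28 (adjusted p = 0.13).

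Among the genes that fill vesicles and hold them in reserve, none passed a test. Slc17a7, the vesicular glutamate transporter VGLUT1, averaged 127 ± 44.2 CPM in TCKO, 106 ± 21.3 in T, 129 ± 8.26 in CKO and 117 ± 22 in WT, with all 4 ranges overlapping. Syn1 and Syn2 encode the synapsins, which tether vesicles to the cytoskeleton. Syn2 averaged 224 ± 37.9 CPM in TCKO, 197 ± 40.1 in T, 283 ± 32.4 in CKO and 272 ± 67.8 in WT, and Syn1 averaged 67.1 ± 17.9, 54.5 ± 10.8, 64.3 ± 8.04 and 56.4 ± 9.69 in the same order. In T against WT the log2 fold change was -0.46 ± 0.18 for Syn2 (adjusted p = 0.0677) and -0.05 ± 0.18 for Syn1 (adjusted p = 0.886). The count ratio of Syn1 to Syn2 ran from 0.261 to 0.3 in T and from 0.183 to 0.245 in WT libraries, without overlap. Its log2 difference of 0.40 had an exact two-sided permutation p of 0.0286, the smallest that 4 against 4 libraries allow, and 0.571 after adjustment over the 20 ratio tests made. A single ratio at that smallest p could not pass after this adjustment.

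All 3 docking and priming genes were called higher in TCKO against T, beside 4.81% of all genes. Without the choroid-rich libraries 1 of the 3 was called, beside 2.16% of all genes. Rab3a encodes a small GTPase on vesicles that recruits them to the active zone. Its CPM were 617, 547, 614 and 696 in TCKO, 435, 466, 392 and 548 in T, 591, 613, 534 and 649 in CKO and 629, 588, 566 and 759.7 in WT. All 4 T libraries were below all 4 WT libraries, while T 5 stood just above TCKO 3. Rab3a was -0.47 ± 0.12 (log2, SE) in T against WT (adjusted p = 0.00847) and 0.43 ± 0.12 in TCKO against T (adjusted p = 0.0241). The T against WT call survived the omission of any single library, though the adjusted p was 0.0739 without both choroid-rich libraries. The TCKO against T call was lost without T 2, T 3, T 4, TCKO 2, TCKO 4 or TCKO 5 (adjusted p between 0.0506 and 0.0869) and without the choroid-rich libraries (0.112).

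Rph3a encodes rabphilin, which binds Rab3 proteins on the vesicle. Its levels were 156, 129, 168 and 155 CPM in TCKO, 70.3, 97.2, 98.3 and 74.5 in T, 129, 119, 125 and 105 in CKO and 52.8, 129.8, 137 and 66.8 in WT libraries. Every TCKO library was above every T library and, by a narrow margin between TCKO 3 and CKO 1, above every CKO library. WT was split, with WT 2 and WT 4 above all T libraries and WT 1 and WT 5 below them. The log2 fold change was 0.84 ± 0.23 in TCKO against T (adjusted p = 0.0267) and -0.18 ± 0.23 in T against WT (adjusted p = 0.625). Without T 2, T 5, TCKO 2, TCKO 4 or TCKO 5 the call was lost, with adjusted p between 0.0505 and 0.0955.

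Unc13a encodes Munc13-1, the priming factor that opens syntaxin for SNARE assembly. It had 31.6, 25.8, 43.3 and 42.8 CPM in TCKO, 20.1, 27.7, 24.7 and 26.4 in T, 41.9, 40.2, 39.9 and 37.2 in CKO and 28.1, 30.4, 32.9 and 29.8 in WT. T lay wholly below WT, and CKO wholly above WT, but TCKO 3 fell among the T libraries. In TCKO against T the log2 fold change was 0.54 ± 0.15 (adjusted p = 0.0223), and in T against WT it was -0.30 ± 0.15 (adjusted p = 0.157), past no threshold. The first of these was lost without T 2, T 4, TCKO 4 or TCKO 5, at adjusted p between 0.0508 and 0.0879, and at 0.0573 without the choroid-rich libraries.

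Rims1, Bsn and Pclo encode the large proteins RIM1, Bassoon and Piccolo that organise the active zone, and none of the 3 passed in any comparison. Bsn averaged 89.7 ± 19.6 CPM in TCKO, 79.6 ± 15.3 in T, 121 ± 9.39 in CKO and 100.1 ± 24.2 in WT. Pclo averaged 86 ± 13.1 CPM in TCKO, 84.4 ± 18.5 in T, 117 ± 6.69 in CKO and 91.9 ± 10.9 in WT, and Rims1 had means between 46.6 CPM in T and 60.1 CPM in CKO. TCKO overlapped T, and T overlapped WT, in all 3 genes. Every CKO library of Pclo (113 to 127 CPM) was above every TCKO library (73.7 to 101 CPM) and every WT library (82 to 108 CPM). The 3 log2 fold changes in TCKO against T were 0.09 ± 0.15 for Rims1, 0.17 ± 0.18 for Bsn and 0.03 ± 0.14 for Pclo.

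**Figure D2:**
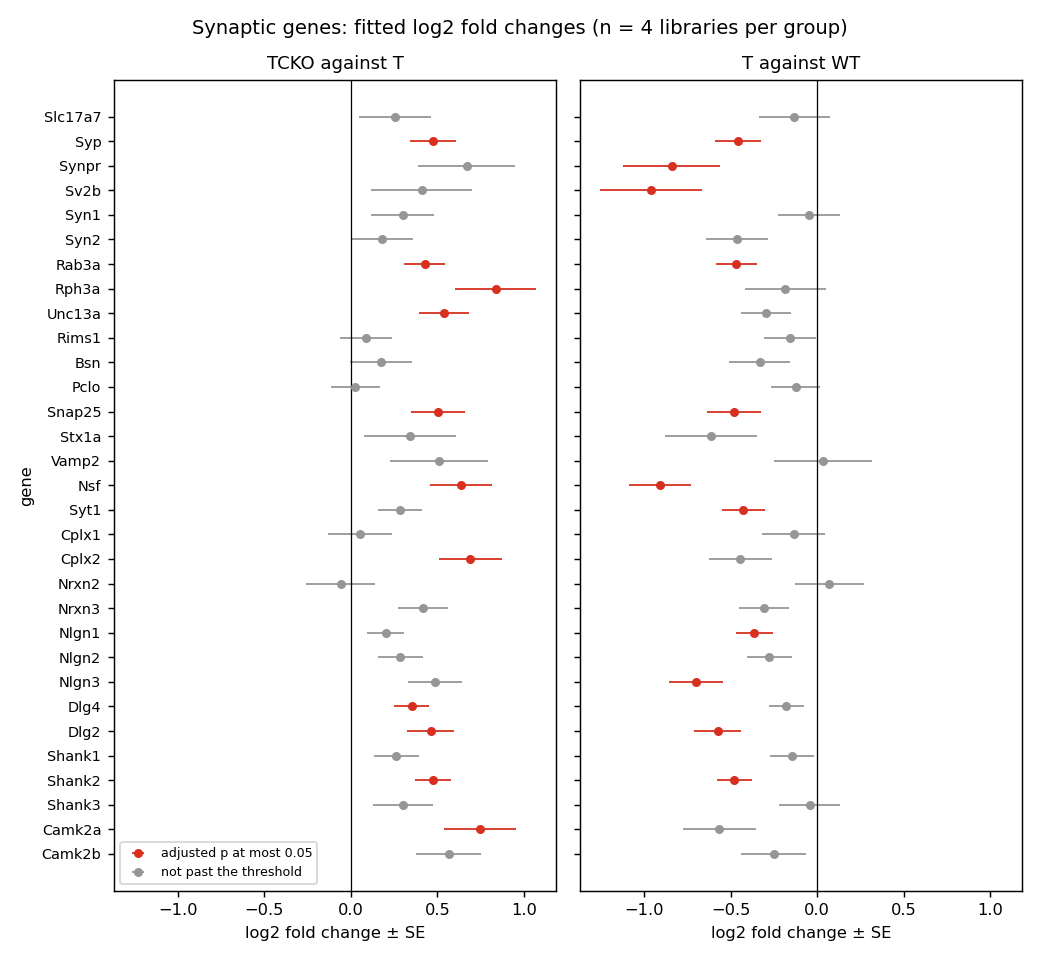
Fitted log2 fold change with its standard error for each gene, in TCKO against T (left) and T against WT (right). Red points have an adjusted p of at most 0.05, 11 genes in each panel. All red points are right of 0 on the left and left of 0 on the right, and the T libraries are common to both panels.

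The SNARE genes included the smallest adjusted p of the list in T against WT, that of Nsf. Nsf encodes the ATPase that takes SNARE complexes apart for reuse after fusion. Nsf had 1541, 927, 920.0 and 1236 CPM in TCKO, 524, 692, 781 and 977 in T, 1425, 1268, 1399.7 and 1353 in CKO and 1458, 1224, 1268 and 1627 in WT. All T libraries were below all CKO and WT libraries, and T 5 was above TCKO 3 and TCKO 4. Nsf fell by 0.91 ± 0.18 on the log2 scale in T against WT (adjusted p = 0.00176), and this call survived the omission of any single library and of both choroid-rich ones. In TCKO against T it rose by 0.64 ± 0.18 (adjusted p = 0.0272), and that call was lost without T 2, T 3, T 4, TCKO 2 or TCKO 5 (adjusted p between 0.0502 and 0.1) or without the choroid-rich libraries (0.0731).

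Snap25 encodes the plasma membrane SNARE that contributes a pair of helices to the fusion complex. It averaged 4322 ± 1067 CPM in TCKO, 3054 ± 631 in T, 4955 ± 174 in CKO and 4257 ± 257 in WT. The highest T library (3929.9 CPM) fell just short of the lowest WT library (3932 CPM), whereas TCKO (3088 to 5503 CPM) overlapped T. The log2 fold change was -0.48 ± 0.16 in T against WT (adjusted p = 0.0344) and 0.50 ± 0.16 in TCKO against T (adjusted p = 0.0443). Both calls lay near the threshold. With the replicate block the T against WT adjusted p was 0.0762, without the choroid-rich libraries it was 0.174, and without WT 1, WT 4, WT 5, CKO 1, CKO 4, CKO 5, T 2, T 3, T 4 or TCKO 3 it was between 0.0524 and 0.121. The TCKO against T call was lost without the choroid-rich libraries (0.157) and without any 1 of 13 libraries, which were all but T 5, TCKO 3 and TCKO 4 (adjusted p between 0.0523 and 0.153).

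The other SNAREs passed no test. Stx1a, the plasma membrane syntaxin, averaged 98.1 ± 24.3 CPM in TCKO, 77.4 ± 32.3 in T, 116 ± 21.7 in CKO and 118 ± 29.1 in WT. Its T libraries spread from 41 to 107 CPM, and the T against WT value was -0.61 ± 0.27 (adjusted p = 0.109). Vamp2, the vesicle SNARE, averaged 492 ± 147 CPM in TCKO, 345 ± 84.4 in T, 344 ± 163 in CKO and 337 ± 68.2 in WT, and was 1 of the 2 genes whose T against WT value was above 0 (0.03 ± 0.28).

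Calcium triggering was represented by a sensor and its clamps. Syt1 encodes synaptotagmin-1, the calcium sensor of fast release. It had 913, 789.9, 794 and 864 CPM in TCKO, 642, 807, 514 and 797 in T, 955, 1007, 909 and 1027 in CKO and 949, 834, 857 and 1069 in WT. The T libraries were all below the WT and CKO libraries, and T 3 and T 5 reached the lowest TCKO libraries. Syt1 fell by 0.43 ± 0.13 on the log2 scale in T against WT (adjusted p = 0.0208), and in TCKO against T the value was 0.28 ± 0.13 (adjusted p = 0.15). The T against WT call was lost without WT 5, T 2 or T 4 (adjusted p between 0.0566 and 0.0763) and without the choroid-rich libraries (0.161).

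Cplx2 and Cplx1 encode complexins, small proteins that bind the assembled SNARE complex. Cplx2 had 768, 554, 959 and 924 CPM in TCKO, 328, 475, 550.2 and 633 in T, 835, 734, 706 and 759 in CKO and 569, 679.7, 775 and 677 in WT. T 2 and T 3 were the lowest of all 16 libraries, and TCKO 3 lay between T 4 and T 5. Cplx2 rose by 0.69 ± 0.18 on the log2 scale in TCKO against T (adjusted p = 0.0199), a call lost without T 2, T 3, TCKO 4 or TCKO 5 (adjusted p between 0.0553 and 0.0682), and T against WT gave -0.44 ± 0.18 (adjusted p = 0.0879). Cplx1 averaged 512 ± 94.3 CPM in TCKO, 494 ± 115 in T, 499.8 ± 85.9 in CKO and 543 ± 108 in WT, with fitted values of 0.05 ± 0.18 in TCKO against T and -0.14 ± 0.18 in T against WT. The count ratio of Cplx1 to Cplx2 was 0.501 to 0.725 in TCKO, 0.688 to 1.61 in T, 0.542 to 0.776 in CKO and 0.611 to 1.01 in WT libraries. The log2 ratio differed by -0.64 in TCKO against T (exact permutation p = 0.0857, adjusted 0.571). With a smallest possible p of 0.0286 and 20 ratio tests, a single ratio could not pass after adjustment. The adjusted value therefore cannot decide whether the 2 complexins changed unequally.

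Of the adhesion molecules that span the cleft, 2 of 5 fell in T against WT and none passed in TCKO against T. Of all genes, 11.2% fell in T against WT. Without the choroid-rich libraries 1 of the 5 fell, beside 4.72% of all genes. Nlgn3 encodes neuroligin-3, a postsynaptic partner of the neurexins. It had 262, 221, 162 and 209 CPM in TCKO, 113, 142, 146 and 208 in T, 267, 242, 249.5 and 262 in CKO and 249, 242, 226 and 274 in WT. T was wholly below WT and CKO, and T 5 overlapped TCKO. Nlgn3 fell by 0.70 ± 0.16 on the log2 scale in T against WT (adjusted p = 0.004), whichever library was left out. Nlgn3 in TCKO against T gave 0.49 ± 0.16 with an adjusted p of 0.0504, just outside the threshold.

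Nlgn1 encodes neuroligin-1, found mainly at excitatory synapses. Its CPM were 146, 135, 111 and 135 in TCKO, 100, 115, 107 and 136 in T, 152, 160.3, 141 and 151 in CKO and 162, 136, 132 and 159 in WT. T 5 overlapped WT, T 3 and T 5 overlapped TCKO, and the other T libraries lay below both. The fitted value was -0.36 ± 0.11 in T against WT (adjusted p = 0.0226) and 0.20 ± 0.11 in TCKO against T (adjusted p = 0.244). The T against WT call was lost without WT 1, WT 5, CKO 1, T 2, T 3 or T 4 (adjusted p between 0.0515 and 0.0858) and without the choroid-rich libraries (0.222).

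The remaining adhesion genes passed neither test. Nlgn2, the neuroligin of inhibitory synapses, averaged 50.5 ± 8.15 CPM in TCKO, 41.5 ± 6.39 in T, 49.3 ± 3.47 in CKO and 50.3 ± 6.38 in WT. Nrxn3, a presynaptic neurexin, averaged 225 ± 33.7 CPM in TCKO, 168 ± 30.4 in T, 251 ± 22.5 in CKO and 208 ± 35.4 in WT. Its T against WT value was -0.31 ± 0.14 (adjusted p = 0.137), which with the replicate block had an adjusted p of 0.0136. Nrxn2, another neurexin, averaged 23.2 ± 6.31 CPM in TCKO, 24.2 ± 4.25 in T, 20.3 ± 3.53 in CKO and 23 ± 5.39 in WT. It was the only gene of the list with a negative value in TCKO against T (-0.06 ± 0.20), and the other gene besides Vamp2 above 0 in T against WT (0.07 ± 0.20).

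Among the scaffold genes of the postsynaptic density, 2 of 5 fell in T against WT and 3 of 5 rose in TCKO against T. Of all genes, 11.2% fell and 4.81% rose in these comparisons. Without the choroid-rich libraries 1 of 5 fell and 2 of 5 rose, beside 4.72% and 2.16% of all genes. Shank2 encodes a scaffold that links receptor complexes to actin. It had 51.9, 45.3, 59.1 and 54 CPM in TCKO, 37, 36.4, 32.8 and 45.2 in T, 59.6, 57.4, 61.3 and 58 in CKO and 54, 47.7, 53.7 and 55.3 in WT. The highest T library (T 5) was below the lowest library of every other genotype, by a narrow margin from TCKO 3. Shank2 was -0.48 ± 0.10 (log2, SE) in T against WT (adjusted p = 0.00316) and 0.47 ± 0.10 in TCKO against T (adjusted p = 0.00608). It held both calls in all 16 fits that left out 1 library and without both choroid-rich libraries, but in a fit of only the 8 TCKO and T libraries the adjusted p of TCKO against T was 0.0566.

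Dlg2 encodes PSD-93, a membrane-associated scaffold that anchors glutamate receptors and channels. Its levels were 101, 109, 108 and 93.1 CPM in TCKO, 62.1, 90.3, 62.7 and 84.2 in T, 107, 126, 90.2 and 125 in CKO and 118, 107, 97.3 and 123 in WT libraries. T lay wholly below TCKO and WT, and reached the lowest CKO library. The log2 fold change was -0.57 ± 0.14 in T against WT (adjusted p = 0.00576) and 0.46 ± 0.14 in TCKO against T (adjusted p = 0.034). Without the choroid-rich libraries the adjusted p was 0.066 in T against WT and 0.133 in TCKO against T, and the TCKO against T call was also lost without CKO 1, T 2, T 4, TCKO 2, TCKO 3 or TCKO 4 (adjusted p between 0.0524 and 0.125).

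Dlg4 encodes PSD-95, the most studied scaffold of excitatory synapses. It had 58.9, 58, 78.6 and 63.8 CPM in TCKO, 46.5, 54.2, 52.7 and 50 in T, 67.2, 67, 61.9 and 66.5 in CKO and 50.3, 60, 61.1 and 58.6 in WT. TCKO lay wholly above T, CKO lay wholly above WT, and T overlapped WT through WT 1. Dlg4 rose by 0.35 ± 0.10 on the log2 scale in TCKO against T (adjusted p = 0.0303), a call lost without T 2, T 4, TCKO 4 or TCKO 5 (adjusted p between 0.051 and 0.114), and T against WT gave -0.18 ± 0.10 (adjusted p = 0.222). The count ratio of Dlg4 to Dlg2 was 0.593 to 0.842 in T and 0.428 to 0.628 in WT libraries (log2 difference 0.41, exact permutation p = 0.0857, adjusted 0.571).

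Shank1 averaged 247 ± 32.6 CPM in TCKO, 206 ± 25.7 in T, 257 ± 36.9 in CKO and 228 ± 30.2 in WT, and passed neither test. Shank3, the least abundant gene of the list per length, averaged 8.63 ± 2.23 CPM in TCKO, 7.01 ± 0.28 in T, 8.02 ± 1.84 in CKO and 7.22 ± 0.25 in WT. Every TCKO library of Shank3 (7.41 to 12 CPM) lay above every T library (6.74 to 7.39 CPM), but the spread came mostly from TCKO 4 and the test gave 0.30 ± 0.18 (adjusted p = 0.283).

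Camk2a and Camk2b encode the alpha and beta subunits of CaMKII, the kinase that is concentrated in the postsynaptic density and needed for long-term potentiation. Camk2a had 3718, 2621, 2895 and 3377 CPM in TCKO, 1109, 1603, 2378 and 2441 in T, 3351, 3099, 2552 and 3076 in CKO and 2204, 3247, 3263 and 2422 in WT. All TCKO libraries were above all T libraries, and T 4 and T 5 overlapped WT 1 and WT 5. The log2 fold change was 0.74 ± 0.21 in TCKO against T (adjusted p = 0.0271) and -0.56 ± 0.21 in T against WT (adjusted p = 0.059). The TCKO against T call was lost without T 2, T 3, TCKO 2 or TCKO 5 (adjusted p between 0.0715 and 0.0844). Without the choroid-rich libraries, T against WT had an adjusted p of 0.0364. Camk2b averaged 586 ± 114 CPM in TCKO, 396 ± 55 in T, 562 ± 54 in CKO and 471 ± 143 in WT, and gave 0.57 ± 0.19 in TCKO against T (adjusted p = 0.057). That comparison passed for Camk2b with DESeq2 (adjusted p = 0.0337) and, with edgeR, without the choroid-rich libraries (0.0441). It also passed without WT 1 (0.0347), WT 2 (0.0472) or TCKO 3 (0.0256).

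**Figure D3:**
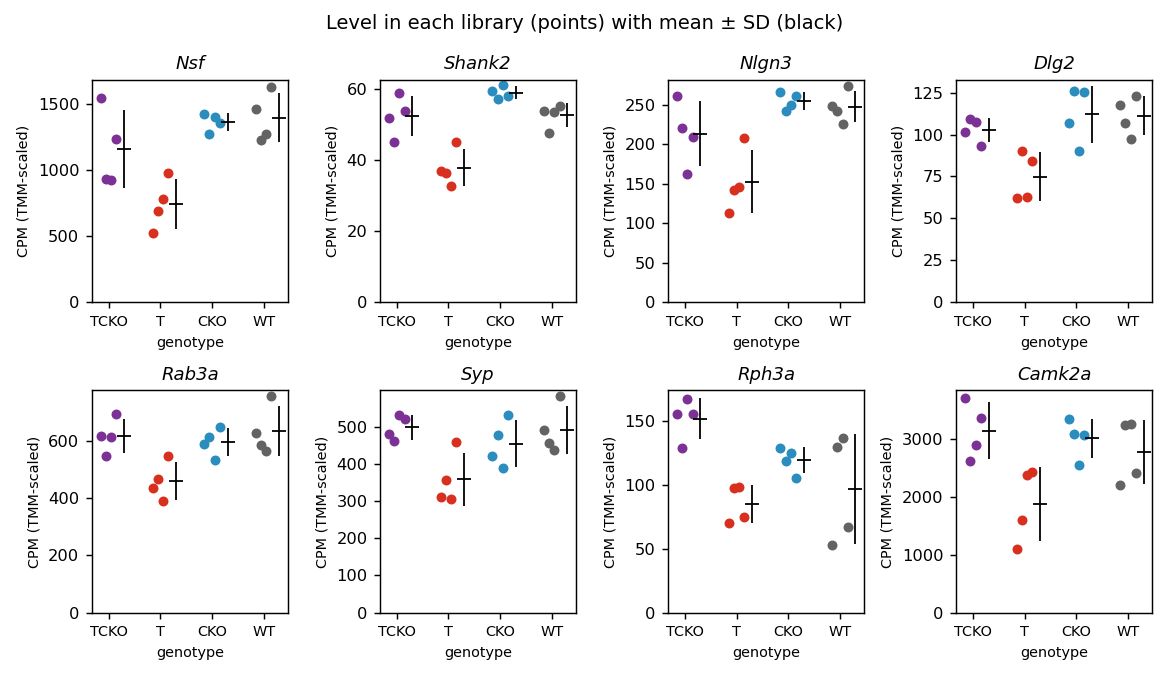
CPM of 8 genes in each library (points), with the mean and SD of each genotype beside them (n = 4). T libraries sit below every WT library for Nsf, Shank2, Nlgn3, Dlg2 and Rab3a, and below every TCKO library for Shank2, Dlg2, Syp, Rph3a and Camk2a.

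The WT libraries split in the same way in several of these genes. WT 1 and WT 5 had 52.8 and 66.8 CPM of Rph3a and 326 and 372 of Camk2b, while WT 2 and WT 4 had 129.8 and 137 and 607 and 579.9. Sv2b ran the other way, at 414 and 423 CPM in WT 1 and WT 5 and 201 and 226 CPM in WT 2 and WT 4. The 10 oligodendrocyte markers summed to 4927 and 3620 CPM in WT 1 and WT 5 and to 13572 and 15963 CPM in WT 2 and WT 4, and their part in these splits was not tested.

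Deletion of Ch25h without the transgene moved none of the 31 genes past the threshold. In CKO against WT, 0 rose and 0 fell by edgeR's quasi-likelihood test, against 0% and 0.0108% of all genes, and DESeq2 and limma voom also called none of the 31, nor did the fit without the choroid-rich libraries. In that order, these alternatives called 0.291%, 0% and 0.0268% of all genes higher and 0.313%, 0.00539% and 0.0161% lower. At an unadjusted p under 0.05, 2 genes were higher and 0 lower: Unc13a at 0.39 ± 0.15 (adjusted p = 0.369) and Pclo at 0.35 ± 0.14 (adjusted p = 0.383), both on the log2 scale. Of all genes, 5.86% were higher and 5.45% lower at that level. In 5 genes (16.1%), Unc13a, Pclo, Snap25, Dlg4 and Shank2, every CKO library lay above every WT library, against 4.88% of all genes, and in none did every CKO library lie below, against 4.06%. The median of the 31 log2 fold changes was 0.12, beside -0.01 for all genes.

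With Ch25h absent on both sides, the transgene likewise gave no call among the 31. In TCKO against CKO, 0 rose and 0 fell by edgeR's quasi-likelihood test, against 0.35% and 0.189% of all genes, and neither DESeq2 nor limma voom nor the fit without the choroid-rich libraries called any. In that order, these alternatives called 2.52%, 0.156% and 0.503% of all genes higher and 1.32%, 0.162% and 0.268% lower. At an unadjusted p under 0.05, 0 were higher and 2 lower: Pclo at -0.45 ± 0.14 (adjusted p = 0.131) and Bsn at -0.43 ± 0.18 (adjusted p = 0.226), beside 10.4% of all genes higher and 7.03% lower. Rph3a was the 1 gene with every TCKO library above every CKO library, against 5.32% of all genes, and Pclo the 1 gene with every TCKO library below, against 4.93%. The median was -0.13, beside 0.01 for all genes, and the range ran from -0.45 to 0.52.

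Whether the transgene's effect differed with Ch25h was tested by the interaction, the TCKO against CKO difference minus the T against WT difference. It was called for 0 of 31 genes in either direction by edgeR's quasi-likelihood test, against 0.695% of all genes higher and 2.45% lower (3.15% in all), and for none by DESeq2, limma voom or the fit without the choroid-rich libraries. In that order, these alternatives called 2.15%, 0.609% and 0.278% of all genes higher and 4.84%, 2.32% and 1.75% lower. At an unadjusted p under 0.05, 6 genes were higher and 0 lower, beside 8.72% and 10.1% of all genes. The smallest adjusted p belonged to Syp (0.59 ± 0.19 on the log2 scale, adjusted p = 0.093) and Rab3a (0.52 ± 0.17, adjusted p = 0.0941), and with the replicate block these were 0.0384 and 0.0329. That blocked fit called 0.808% of all genes higher. Without T 5, 4 genes were called higher: Syp (adjusted p = 0.018), Rab3a (0.0294), Nsf (0.0476) and Nlgn3 (0.0487). The share of all genes called higher rose as well, to 2.87% without T 5. The median of the 31 interaction values was 0.28, beside 0.03 for all genes, and 28 of 31 were positive.

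Levels can be compared between genes only per length, for which the deposited TPM values, a length-corrected share of transcripts, were used. In WT libraries the order was led by Snap25 at 2915 ± 166 TPM (SD, n = 4), followed by Camk2a at 903 ± 171, Rab3a at 670.4 ± 97.2 and Nsf at 523 ± 66.9 TPM. The lowest were Shank2 at 9.24 ± 0.63, Unc13a at 4.46 ± 0.22 and Shank3 at 3.49 ± 0.17 TPM. Neighbours in this order were separated beyond their ranges only after Snap25, Nsf, Nlgn2, Pclo, Shank2 and Unc13a, and every other pair of neighbours overlapped. In T libraries Snap25 averaged 2040.3 ± 479.5 TPM and was also first, followed by Camk2a at 599.7 ± 208 and Rab3a at 492 ± 84 TPM.

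**Figure D4:**
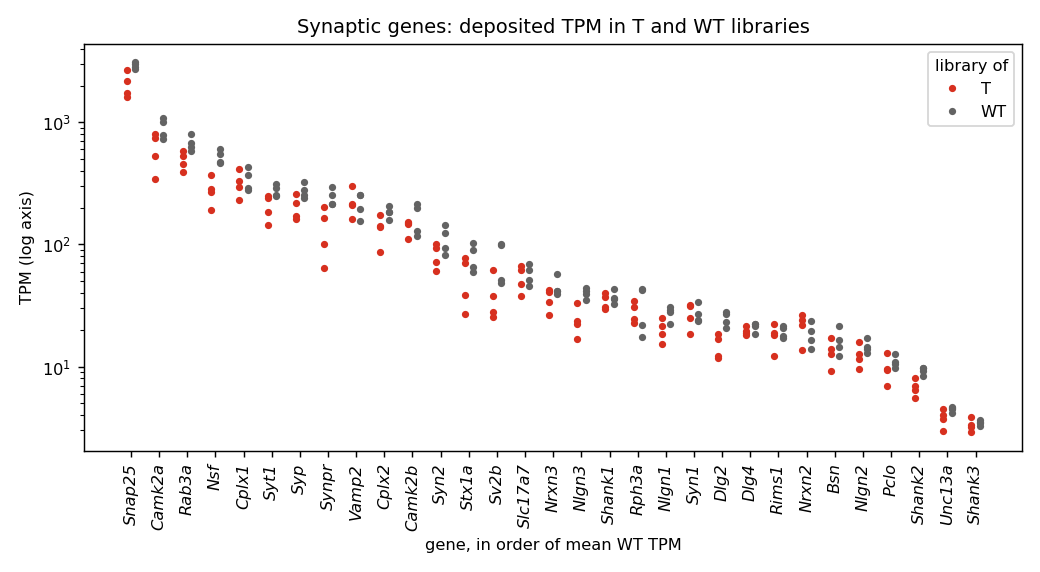
Deposited TPM of each gene (log axis) in the 4 T (red) and 4 WT (gray) libraries, with genes in order of their mean in WT. Levels span Snap25, at 2915 TPM on average in WT libraries, to Shank3 at 3.49 TPM.

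The same direction was seen in further neuronal genes, which were counted from fixed lists. Of 40 other presynaptic genes, 0 rose and 12 fell in T against WT (median log2 fold change -0.28), among them Amph (-0.67 ± 0.14) and Synj1 (-0.66 ± 0.15), which act in vesicle endocytosis, and the active zone gene Erc2 (-0.72 ± 0.18). In TCKO against T, 8 of the 40 rose and 1 fell (median 0.26), with Syngr3 at 0.47 ± 0.11 and Dnajc5 at 0.37 ± 0.09. Of 31 other postsynaptic scaffold and adhesion genes, 8 fell in T against WT (median -0.24) and 6 rose in TCKO against T (median 0.25), with 0 in the opposite direction. Gphn, the scaffold of inhibitory synapses, had 0.51 ± 0.10 in TCKO against T and -0.48 ± 0.10 in T against WT. Of 16 neuronal genes outside the synapse, 8 fell in T against WT (median -0.42) and 3 rose in TCKO against T (median 0.31), with Eno2, a neuronal glycolytic enzyme, at 0.62 ± 0.13 in TCKO against T and -0.76 ± 0.13 in T against WT. Without the choroid-rich libraries the falls in T against WT were 3 of 40, 4 of 31 and 2 of 16 in these lists, and the rises in TCKO against T were 1, 4 and 1. Of all genes, 11.2% were called lower in T against WT and 4.81% higher in TCKO against T. Without those libraries the shares were 4.72% and 2.16%.

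The level of the 31 synaptic genes relative to those 16 neuronal genes was described per library as the difference of their mean log2 CPM. It averaged -0.37 ± 0.10 in TCKO, -0.45 ± 0.18 in T, -0.43 ± 0.03 in CKO and -0.44 ± 0.09 in WT libraries (SD, n = 4). The T range, -0.65 to -0.23, held the whole WT range, -0.56 to -0.35. The choroid-rich libraries set the upper end of T (T 4) and the lower end of WT (WT 1). The other T libraries, T 2, T 3 and T 5, had -0.65, -0.49 and -0.41. In WT 2, WT 4 and WT 5 the difference was -0.42, -0.35 and -0.45. Markers of excitatory neurons gave 2 falls among 14 genes in T against WT (Calb1 and Ociad2) and 2 rises in TCKO against T (Wfs1 and Nptx1), and those of inhibitory neurons 1 fall among 10 (Sst) and 0 rises. Without the choroid-rich libraries these were 1 fall and 1 rise for excitatory markers and 0 of either for inhibitory ones. Beside these counts stand 11.2% of all genes called lower in T against WT and 4.81% called higher in TCKO against T. The same shares were 4.72% and 2.16% without the choroid-rich libraries.

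Markers of glia moved with these comparisons. The 12 microglial markers summed to 844 to 1511 CPM in TCKO, 2937 to 3953 in T, 678 to 731 in CKO and 604 to 853 in WT libraries, and 11 of 12 rose in T against WT while 10 fell in TCKO against T. The 10 astrocyte markers summed to 4880 to 7929 CPM in TCKO, 10648 to 14512 in T, 4011 to 4585 in CKO and 4972 to 5631 in WT libraries, with 6 rises in T against WT and 6 falls in TCKO against T. The 10 oligodendrocyte markers summed to 13664 to 18066 CPM in TCKO, 10322 to 22540 in T, 5387 to 9040 in CKO and 3620 to 15963 in WT libraries, with 5 rises in T against WT and 0 calls in TCKO against T. Of 8 endothelial markers 2 rose in T against WT and 2 fell in TCKO against T, and of the 10 choroid plexus markers none was called in either. Of all genes, 13% were called higher in T against WT and 8.05% lower in TCKO against T. Without the choroid-rich libraries the microglial, astrocyte and endothelial counts were as given, and 2 oligodendrocyte markers rose in T against WT. The shares of all genes were then 9.71% and 6.36%. All listed markers passed the filter on low counts with all 16 libraries. CPM are shares of a library, and the part of these changes in the levels of the synaptic genes was not tested.

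**Figure D5:**
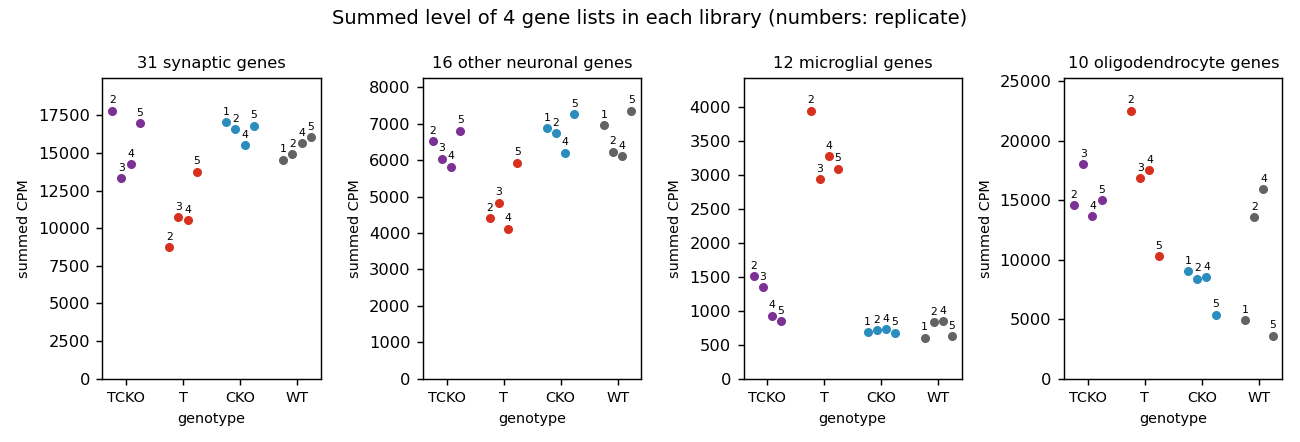
Summed CPM in each library (points, with the replicate number) of the 31 synaptic genes, 16 other neuronal genes, 12 microglial and 10 oligodendrocyte markers. T libraries 2, 3 and 4 are the lowest for the synaptic sum, and all T libraries are the highest for the microglial sum, at 2937 CPM or more.

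Some of these counts may be shared with neighbouring genes. The estimated counts of Syp, Unc13a, Nrxn2 and Nrxn3 were not whole in any of the 16 libraries, and those of Shank1, Nlgn3 and Shank3 were not whole in 15, 13 and 12. In the GENCODE M21 annotation, exons of Syp overlap the antisense gene Gm14703, exons of Unc13a overlap Colgalt1, exons of Rab3a overlap Mpv17l2 and exons of Nlgn1 overlap the antisense gene A830092H15Rik, all on the opposite strand. Sv2b likewise overlaps 1500012K07Rik on the opposite strand. Exons of Nrxn2, Nrxn3, Shank1, Shank3, Syn1, Syn2 and Pclo also overlap other genes on the opposite strand. On its own strand, Nlgn3 overlaps Gm21986, Dlg2 overlaps Gm45131 and Gm45159, and Bsn overlaps the miRNA gene Gm47303. Whether the counting used strand is not stated in these sources, so reads of these pairs cannot be told apart. Nsf, Shank2, Snap25, Syt1 and Cplx2 overlap no other gene's exons and had whole counts in every library.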

How the data were processed

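RNA of the right hippocampus was measured in 16 libraries, 4 of each of 4 genotypes, grouped by the genotype and replicate number in the labels. The authors deposited estimated counts per gene in a table of the whole series, and per-library tables of effective length and TPM, per the file headers. The table held 55774 lines, of which 287 repeated a gene. The submitters' processing notes name bcl2fastq, STAR 2.5.1a, Subread and featureCounts 1.4.6-p5 on GRCm38 without roles. Of the non-zero values, 25.47% were not whole, and no source used here names the program behind these estimates. An estimate can divide reads between overlapping genes. The effective length of each gene in each library, as deposited by the authors, served only as an offset in an alternative fit.

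The estimated counts, after rounding to whole numbers, entered edgeR 4.0.16 (quasi-likelihood, TMM scaling, filterByExpr, which kept 18565 genes) in R 4.3.3, in a single fit with 1 mean per genotype. P-values were adjusted by the Benjamini-Hochberg method over all genes tested, with a threshold of 0.05. CPM are TMM-scaled, and SE are those of the log2 fold change. The procedure was first tested on simulated data. Ratios of paralogs were compared by exact two-sided permutation tests, in which a single ratio could not pass the threshold after adjustment. Alternatives were DESeq2 1.42.0, limma 3.58.1 (voom), RLE and upper-quartile scaling, no filter on low counts, the effective length offset, the 8 compared libraries alone, a replicate block, omission of each library and omission of the choroid-rich pair. Depths of 15064309 to 34348284 reads gave at least 112 reads for every gene of the list in every library.

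Deviations of same-numbered T and WT libraries from their genotype means had correlations of 0.12, 0.14 and 0.30 for replicates 2, 4 and 5. Same-numbered T and CKO libraries gave 0.10, 0.14 and 0.14, and CKO and WT libraries -0.05 to 0.27. For TCKO and T libraries the values were -0.14 to 0.17. Libraries of different numbers were not compared, so these values cannot show whether a number pairs libraries. The labels do not say what a number shares. Values with the block are printed where they change a T against WT call.

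Values in every library are given for up to 14 genes called in any contrast, by smallest adjusted p, and the other genes are given by means, ranges and counts. Of the other lists, up to 3 genes by smallest p are named, and 1 of these is not reported here. The genes, their roles, the other lists and the choroid-rich pair were chosen with earlier results of these data known. Promoter sequences are from RefSeq (GRCm38.p6), and overlaps of exons are from GENCODE M21.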

Additional observations from a re-analysis of the deposited data

Results flagged for a closer look

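In 6 of the 124 sets of 4 libraries (31 genes in 4 genotypes), 1 library stood far from the other 3, by Dixon's test at the 95% level. Chance alone sets a library apart in about 1 of 20 such sets. Sv2b was highest in CKO 5, at 359 CPM, against 249 to 261 CPM in the other CKO libraries. Shank3 was also highest in CKO 5, at 10.8 CPM, against 6.88 to 7.29 CPM. In TCKO 4, Shank3 reached 12 CPM, against 7.41 to 7.60 CPM in the other TCKO libraries, and Nlgn2 reached 62.7 CPM, against 45.5 to 47.6 CPM. Pclo was highest in CKO 1, at 127 CPM, against 113 to 115 CPM. Dlg4 was lowest in CKO 4, at 61.9 CPM, against 66.5 to 67.2 CPM in the other CKO libraries.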

How the results depend on the processing

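No fitted value of the 31 genes changed its sign among those called, and the median over the genes stayed between -0.40 and -0.29 in T against WT and between 0.31 and 0.51 in TCKO against T under all 25 alternatives. The number of genes called lower in T against WT was 11, and 6 with the 8 compared libraries alone, 5 without the choroid-rich libraries and 5 to 14 when each library was left out in turn. The number called higher in TCKO against T was 11, and 6 with no filter on low counts, 1 with the 8 compared libraries alone, 6 without the choroid-rich libraries and 1 to 12 when each library was left out. The fit on 8 libraries has fewer samples for the estimate of the spread. It called 7.77% of all genes lower in T against WT and 1.15% higher in TCKO against T. DESeq2 called 12 lower and 13 higher in these comparisons, limma voom 12 and 12, and both other scalings 11 and 10. Among all genes, DESeq2 called 10.4% lower and 5.59% higher, and limma voom 12% and 4.87%. RLE scaling gave 10% and 4.06% of all genes, and upper-quartile scaling 11.4% and 4.16%. The replicate block gave 10 and 10, changed no T against WT call other than those of Synpr, Snap25 and Nrxn3, and for the interaction it gave 2 genes higher in place of 0, with 0 to 4 when each library was left out. With the block, 7.88% of all genes were called lower in T against WT and 4.37% higher in TCKO against T. For the interaction, 0.808% of all genes were called higher with the block. In TCKO against T, the block took Snap25 to an adjusted p of 0.0603 and Dlg4 to 0.0503, and Nrxn3 to 0.0121. With the effective length offset Dlg4 had an adjusted p of 0.106 and Nlgn3 0.0498 in the same comparison. Over single genes, contrasts and settings, 136 results were weaker, 28 stronger and 3680 kept their side of the threshold. Only the 11 calls in T against WT and the 11 in TCKO against T could become weaker. The 3680 include results that were called in neither fit. Of all genes, 893 of 18565 (4.81%) were called higher in TCKO against T. With no filter these were 477 of 34446 (1.38%), and with the 8 libraries alone 202 of 17578 (1.15%). The cause of the changed counts was not tested in any of these settings. Each gene of the list had at least 112 reads in every library, and the 4 libraries per group limit the precision.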
